A study of Rattus norvegicus with 16 samples.

Results

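The early response to a nerve crush was read in 2 preparations of rat sciatic nerve, Schwann cells purified by immunopanning and whole nerve, and the comparison asks for which genes the change 3 days after the crush differed between them. The 8 libraries of this comparison, out of 16 in the series, are 2 each of Schwann Cell Uncrushed, Schwann Cell 3d post-crush, Whole Nerve Uncrushed and Whole Nerve 3d post-crush, and all 8 were chosen by their labels. The quantity tested for each gene is the Schwann cell effect (day 3 minus uncrushed, on the log2 scale) minus the whole nerve effect, called the interaction here. A positive interaction means that the change with injury was higher in Schwann cells, and a negative interaction that it was lower. All rats were labelled postnatal day 18, and no genotype or strain is given in the labels. The labelled age is that at the crush, so crushed rats were older than their label when nerves were taken. For uncrushed rats, the age when nerves were taken is not given apart from the label. Crushed and uncrushed rats may therefore have differed in age, and the part of age in the injury effects was not tested. Crushes were made under isoflurane, with carprofen as analgesic. For injured nerves the segment distal to the crush was taken, and for uncrushed nerves the matching segment, and uncrushed rats had no sham surgery. Each sample of purified cells pooled at least 10 nerves. Purification used enzymatic dissociation of the nerve, antibody dishes that held back CD45+ and Thy1+ cells, and a dish for O4, whereas whole nerve RNA was taken from tissue that had not been dissociated. Preparation and cell content therefore differ together between the 2 tissues, and their parts in any difference below cannot be told apart. Dissociated whole nerve, which the study also profiled, was not analysed here. In bulk RNA, fewer cells of a type and less RNA per cell cannot be told apart either.

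Schwann cells are the glia of the peripheral nerve. After an axon is cut or crushed, those distal to the injury stop making myelin, re-enter the cell cycle and turn on genes of a repair program, while macrophages enter the nerve and clear debris. Whole nerve RNA is a sum over Schwann cells, fibroblasts, perineurial, endothelial and immune cells, and axons. Immediate-early genes, such as Fos, Jun and Egr1, encode short-lived regulators that are switched on within minutes by growth factors, stress or tissue dissociation.

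Expected counts summed to between 10555067 and 27562637 per library. The identity of the preparations was checked with marker genes. Sox10, the transcription factor that defines the Schwann lineage, stood at 59.1 and 69.6 FPKM in uncrushed Schwann cells, 67.2 and 63.6 at day 3, 21.5 and 28.7 in uncrushed whole nerve and 27.8 and 27.9 at day 3. Its interaction was 0.23 ± 0.22 (SE, n = 2 per group; edgeR adjusted p = 0.501). Ptprc, which encodes CD45, was at 0.16 and 0.07 FPKM in uncrushed Schwann cells and at 0.18 and 1.29 at day 3, against 3.97 to 4.16 and then 19.1 to 20.7 in whole nerve. The summed level of 22 myeloid markers was 28.6 and 11.97 FPKM in uncrushed Schwann cells and 17.2 and 95.7 at day 3, so the second day 3 Schwann cell library stood above the other 3. FPKM values are scaled to library totals only, whereas the tests also used TMM factors, which were 0.820 and 0.821 in the uncrushed whole nerve libraries and 0.994 to 1.05 in the other 6. Day 3 to uncrushed ratios of FPKM in whole nerve are for that reason higher than the fitted ones, so that rises look larger and falls smaller.

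Of 16829 genes tested, 4376 differed in their day 3 injury effect (26.0% of those tested; edgeR quasi-likelihood test, adjusted p below 0.05). The effect was higher in Schwann cells for 2076 (12.3%) and lower for 2300 (13.7%), and the median interaction over all genes was -0.04. Within Schwann cells 4082 genes rose (24.3%) and 4234 fell (25.2%), and within whole nerve 3924 rose (23.3%) and 3111 fell (18.5%). The split between higher and lower depends on how libraries are scaled: with library totals and no TMM factors, a setting chosen with the results known, the median of all genes moved by -0.363, and 1078 genes were higher and 4457 lower, so that 19.5% of the calls were higher against 47.4% with TMM. The other scalings gave 49.0% to 49.6%.

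An opposite response was called where both effects and their difference passed the test. By this rule 226 genes rose in Schwann cells and fell in whole nerve (1.34% of genes tested), and 321 fell in Schwann cells and rose in whole nerve (1.91%). With library totals only, these counts were 85 and 748, of which 84 and 321 are also in the counts with TMM. Leaving out the first or the second Whole Nerve 3d post-crush library gave 146 and 135 of the former kind, and 227 and 215 of the latter, of which 143 and 133, and 221 and 210, were also called with all libraries.

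The opposite responses went with unequal levels before injury. In uncrushed samples, 257 of the 321 genes that fell in Schwann cells had the higher mean FPKM in Schwann cells, or 80.1%, against 56.1% of all genes tested, and at day 3 this share was 28.7% against 42.2%. The median log2 ratio of Schwann cells to whole nerve over these 321 genes went from 1.207 to -0.706. Of the 226 genes that rose in Schwann cells, 202 had the lower mean FPKM in uncrushed Schwann cells, and the median log2 ratio went from -0.955 to 0.011, with 113 of the 226 higher in Schwann cells at day 3. These ratios use the libraries that enter the interaction and are given as a description.

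**Figure D1:**
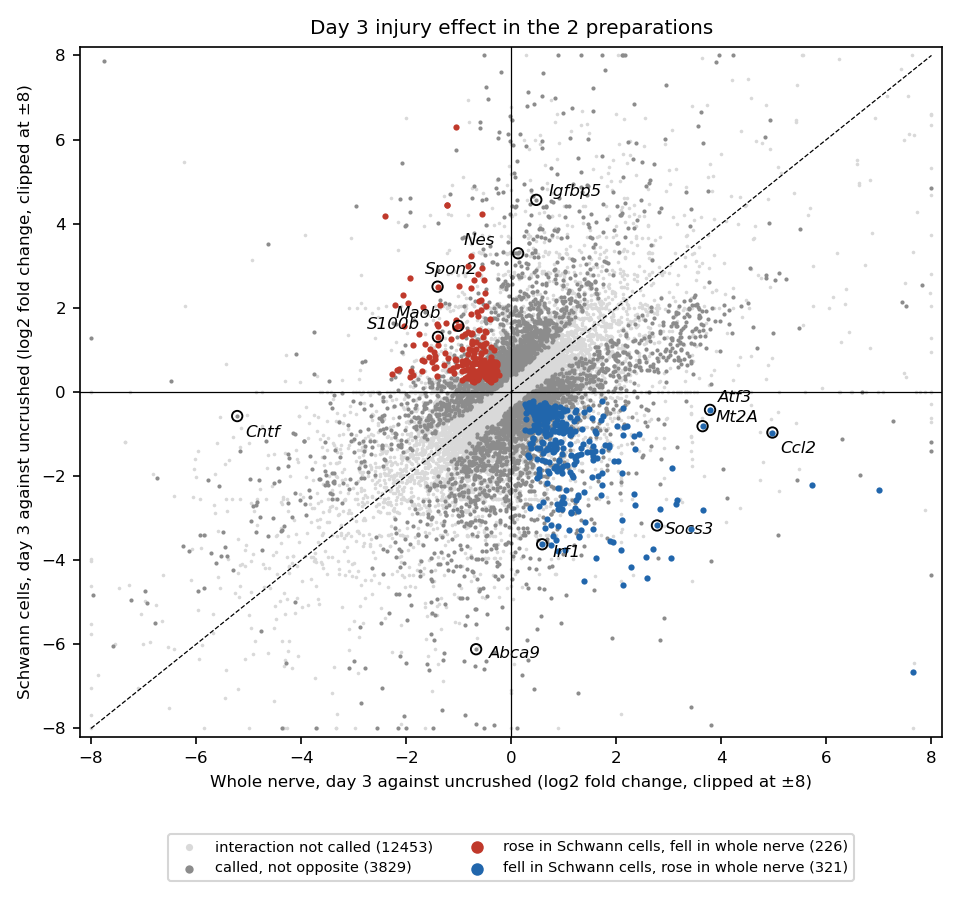
Each point is a gene, with its day 3 effect in whole nerve on the x axis and in Schwann cells on the y axis (log2 fold change, values beyond 8 drawn at the edge). The 226 genes that rose in Schwann cells and fell in whole nerve are red, the 321 with the reverse pattern are blue, the dashed line marks equal effects and open circles mark the labelled genes.

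Most immediate-early genes fell in Schwann cells after the crush, and about as many rose as did not rise in whole nerve. Of 33 tested, 0 had a higher and 24 a lower injury effect in Schwann cells. The median interaction was -2.33 against -0.04 over all genes, and 72.7% of the list was called against 26.0%. In Schwann cells 23 fell and 2 rose (median -1.52), and in whole nerve 17 rose and 3 fell (median 0.89), and 13 members were opposite. With library totals only, 27 were lower and 0 higher. Fos, a subunit of the AP-1 transcription factor, was at 934 and 962 FPKM in uncrushed Schwann cells, 250.3 and 241 at day 3, 2.47 and 2.03 in uncrushed whole nerve and 11.5 and 13.3 at day 3. Every Schwann cell library lay above every whole nerve library, and the groups did not overlap within either preparation. The level of Fos fell by 1.93 ± 0.14 in Schwann cells on the log2 scale and rose by 2.11 ± 0.20 in whole nerve, an interaction of -4.04 ± 0.24 (adjusted p = 5.87e-08).

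Socs3, the feedback inhibitor of JAK/STAT signaling, had the largest interaction of the list. It stood at 153.5 and 169 FPKM in uncrushed Schwann cells and 18.4 and 16.9 at day 3, against 0.68 and 0.92 and then 5.36 and 8.21 in whole nerve. The interaction was -5.95 ± 0.27 (adjusted p = 6.85e-09). Jun, the other main AP-1 subunit and a regulator of the repair program, was at 383 and 408 FPKM, then 232 and 218, in Schwann cells and at 10.3 and 9.39, then 49.0 and 52.0, in whole nerve. Its level at day 3 was thus still higher in purified cells, and the interaction of -2.82 ± 0.16 (adjusted p = 3.92e-08) joined a fall of 0.80 in Schwann cells to a rise of 2.02 in whole nerve. Atf3, a stress-induced partner of Jun, went from 416.5 and 402.5 to 312 and 291 FPKM in Schwann cells and from 3.33 and 5.66 to 79.7 and 73.4 in whole nerve (interaction -4.21 ± 0.27, adjusted p = 8.82e-08). The fall of Atf3 in Schwann cells was 0.43 ± 0.17 (adjusted p = 0.0470), and the opposite call was lost without either library of 3 groups, Schwann Cell Uncrushed, Schwann Cell 3d post-crush or Whole Nerve 3d post-crush.

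Zfp36, which encodes an RNA-binding protein that shortens the life of cytokine mRNAs, was the most abundant of the list in uncrushed Schwann cells, at 1875 and 2067 FPKM in uncrushed Schwann cells, 287 and 294 at day 3, 23.1 and 27.7 in uncrushed whole nerve and 36.4 and 45.2 at day 3. Its whole nerve rise was 0.35 ± 0.12, next to a Schwann cell fall of 2.75 ± 0.12. Myc, Egr1, Egr3, Junb, Gadd45b, Gadd45g, Ier5 and Zfp36l1 were opposite too, with interactions from -4.67 (Gadd45g) to -2.15 (Ier5). Members that did not pass the test included Dusp1, at 62.1 and 65.4, then 62.1 and 71.4 FPKM in Schwann cells, and Klf6, at 340.2 and 419, then 407 and 399.6. Egr2, a member of the family that drives myelination, fell in both preparations, by 3.15 and 3.24, with an interaction of 0.09 ± 0.22 (adjusted p = 0.827). The smallest called interaction of the list was that of Csrnp1 (-0.89 ± 0.31, adjusted p = 0.0498), which was lost in 12 of 17 alternatives.

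The promoter of Zfp36 is shown as an example of the sequence upstream of such a gene. A CArG box, the binding site of serum response factor, lay 32 bases upstream of the start in RefSeq (build GRCr8, chr1:92799109-92799188, minus strand, 80 bases, 5′ to 3′), and its letters are in capitals.
Zfp36: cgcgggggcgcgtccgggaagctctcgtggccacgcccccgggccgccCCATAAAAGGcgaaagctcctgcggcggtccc
Over the 250 bases upstream of the start, 5 of the 21 immediate-early genes matched in the table held a CArG box (23.8%), against 1.19% of the 11233 tested genes that were matched.

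Interferon response genes were shifted the same way. Of 27 tested, 18 had a lower and 0 a higher injury effect in Schwann cells. Their median interaction was -2.13, and 66.7% were called, next to 26.0% of all genes tested. In Schwann cells 19 fell and 1 rose, and in whole nerve 11 rose and 1 fell, with 5 opposite genes, namely Irf1, Rtp4, Ifi47, Oasl2 and Irf9. With library totals only, 24 were lower and 0 higher, 17 rose in whole nerve and 11 were opposite. Irf1, a transcription factor induced by interferon, was at 110.3 and 93.4 FPKM in uncrushed Schwann cells and 8.60 and 7.77 at day 3, against 3.28 and 2.81 and then 6.51 and 5.19 in whole nerve. Both preparations ended at similar levels from starting levels that were far apart. Its interaction was -4.21 ± 0.22 (adjusted p = 2.33e-08). Gbp2, an interferon-induced GTPase, rose in both, from 61.6 and 68.6 to 279 and 242 FPKM in Schwann cells and from 17.5 and 16.5 to 108 and 124 in whole nerve, and its interaction of -0.41 did not pass (adjusted p = 0.0932). Ifitm3 encodes a membrane protein that blocks virus entry. Its p was among the 4 lowest of negative interactions, for genes averaging 10 FPKM or more in a group of each preparation. It went from 404 and 419 to 45.1 and 45.4 FPKM in Schwann cells and from 509 and 409 to 1147 and 999 in whole nerve (interaction -4.08 ± 0.19, adjusted p = 1.04e-08).

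Chemokines and cytokines showed the same direction in part: of 26 tested, 9 were lower and 3 higher in Schwann cells (median interaction -0.91). That is a called share of 46.2%, next to 26.0% of all genes tested. In whole nerve 15 rose and 1 fell. The opposite genes were Ccl2, Ccl7, Cxcl1 and Cxcl10. Ccl2, the main attractant of monocytes, was at 514 and 456 FPKM in uncrushed Schwann cells, 202 and 291 at day 3, 12.7 and 16.2 in uncrushed whole nerve and 488.5 and 640.4 at day 3. Crushed and uncrushed libraries did not overlap within either preparation, as the rule that named this gene required. Whole nerve at day 3 reached the range of uncrushed Schwann cells. The interaction was -5.94 ± 0.36 (adjusted p = 7.02e-08). Cxcl10, a chemokine for T cells that interferon induces, went from 41.3 and 28.6 to 5.98 and 6.80 FPKM in Schwann cells and from 7.31 and 2.40 to 31.1 and 34.3 in whole nerve. Its interaction was -4.77 ± 0.43 (adjusted p = 2.01e-06). Ccl7, another attractant of monocytes, went from 21.7 and 22.3 to 2.16 and 9.60 in Schwann cells and from 4.66 and 4.74 to 32.4 and 67.0 in whole nerve (interaction -4.87 ± 0.80, adjusted p = 0.000406), and its opposite call was lost without the first day 3 Schwann cell library. Cxcl1, an attractant of neutrophils, was at 569 and 543 FPKM in uncrushed Schwann cells and at 38.2 and 53.5 at day 3. It was at 2.04 or below in every whole nerve library, with 3 counts in each uncrushed one, which is the counting floor. Il6 was listed at 0 in both uncrushed whole nerve libraries and at 0.50 and 5.10 at day 3, a spread between 2 libraries of 1 group that leaves its rise uncertain, next to 2.83 and 3.42 and then 0.52 and 2.05 in Schwann cells. The called interaction with the highest value in the list was that of Il18. In Schwann cells it was at 0 and 0.15 FPKM before injury (counts of 0 and 1, at the counting floor) and 4.18 and 3.89 at day 3. It rose in whole nerve too, from 2.59 and 4.19 to 21.2 and 20.4.

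Complement and MHC class II genes rose in whole nerve, 23 of 27 with 1 falling, and in Schwann cells 4 rose and 6 fell. Their interaction was lower in 8 and higher in 0, and 5 were opposite (C4a, C4b, Cfp, Ciita and C1r), or 3 with DESeq2. The called share was 29.6%, next to 26.0% of all genes tested, and Ciita had counts of 1 and 0 in Schwann cells at day 3. C1r, the protease that starts the classical pathway, went from 30.2 and 26.2 to 12.7 and 11.1 FPKM in Schwann cells and from 54.8 and 67.6 to 132 and 136 in whole nerve. C4a had the largest negative interaction (-6.46 ± 0.48, adjusted p = 3.98e-07) and C1s the smallest called (-0.97 ± 0.22, adjusted p = 0.00439). Since C4a and C4b are near-identical copies, their separate values are uncertain. Myeloid markers moved with these groups in whole nerve. All 22 tested rose there, their summed level went from 738.8 and 698 to 3917 and 3869 FPKM, and their part in the rise of these genes was not tested. In Schwann cells 4 of the 22 rose and 0 fell, the interaction was lower in 1 (Cd68), or in 5 with library totals only, and higher in 0, and the median of these markers was 0.36 FPKM in uncrushed Schwann cells and 0.83 at day 3.

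Upstream of these genes, a STAT site (TTCNNNGAA) in the promoter of Irf1 and interferon-stimulated response elements (ISRE, searched as GAAANNGAAA) in those of Ifitm3 and Cxcl10 are shown in capitals. Both strands were searched, matches of different motifs may overlap, and distances run from the first base of the match to the start. The sequences are from RefSeq, build GRCr8, 5′ to 3′ on the strand of the gene. They lie at chr10:38417785-38417934 (plus strand, 150 bases, site 142 bases upstream) for Irf1, at chr1:205541759-205541838 (minus strand, 80 bases, site 44 bases upstream) for Ifitm3, and at chr14:15988816-15989065 (plus strand, 250 bases, site 243 bases upstream) for Cxcl10.
Irf1: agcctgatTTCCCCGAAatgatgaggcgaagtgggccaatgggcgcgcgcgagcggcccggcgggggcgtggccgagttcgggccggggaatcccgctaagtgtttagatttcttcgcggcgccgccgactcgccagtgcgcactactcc
Ifitm3: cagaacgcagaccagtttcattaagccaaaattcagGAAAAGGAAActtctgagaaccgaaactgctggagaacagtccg
Cxcl10: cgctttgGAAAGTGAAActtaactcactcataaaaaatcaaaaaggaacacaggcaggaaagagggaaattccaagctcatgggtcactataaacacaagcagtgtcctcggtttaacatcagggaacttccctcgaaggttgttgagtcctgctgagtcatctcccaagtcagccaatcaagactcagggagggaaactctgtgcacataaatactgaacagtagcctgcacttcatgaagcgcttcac
Among the 231 matched genes that fell in Schwann cells and rose in whole nerve, 16 held an ISRE in the 250 bases upstream (6.93%), 18 an AP-1 site (TGANTCA, 7.79%) and 19 an NF-kB site (8.23%). Over all matched genes tested, the shares were 2.60%, 4.59% and 4.41%. Among the 163 matched genes with the reverse pattern they were 1.84%, 4.29% and 2.45%. These matches are letters in a window and were not tested as sites.

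Other genes fell in Schwann cells and rose in whole nerve at a mean of at least 10 FPKM in a group of each preparation. Apoc1, an apolipoprotein, went from 15.0 and 9.08 to 0.26 and 2.23 FPKM in Schwann cells and from 0.77 and 3.02 to 22.9 and 20.01 in whole nerve (interaction -5.71 ± 0.77, adjusted p = 7.73e-05). Cyp7b1, an oxysterol hydroxylase, went from 10.5 and 15.4 to 0.73 and 1.09 in Schwann cells and from 6.19 and 5.32 to 13.6 and 16.1 in whole nerve (-4.79 ± 0.29, adjusted p = 7.02e-08). G0s2, an inhibitor of lipolysis, went from 18.0 and 15.7 to 0.47 and 2.24 in Schwann cells and from 43.1 and 27.3 to 86.9 and 69.0 in whole nerve (-4.22 ± 0.49, adjusted p = 1.89e-05). For each of these 3 genes the crushed and uncrushed libraries were apart in both preparations, as the rule that named them required. The opposite call of G0s2 was lost without the second uncrushed whole nerve library or the first at day 3.

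Mt2A, a metallothionein that binds zinc and copper, was at 27.7 and 25.7 FPKM and then 9.32 and 20.1 in Schwann cells, and at 16.5 and 14.4 and then 210.4 and 277 in whole nerve (interaction -4.46 ± 0.43, adjusted p = 3.44e-06). Most of that difference came from the whole nerve rise of 3.64, and the Schwann cell fall of 0.81 ± 0.31 (adjusted p = 0.0389) was the weaker part, the opposite call being lost without either uncrushed Schwann cell library or the first at day 3. Cp, the ferroxidase ceruloplasmin, went from 52.4 and 49.8 to 7.35 and 7.32 in Schwann cells and from 23.8 and 28.0 to 60.7 and 67.6 in whole nerve (-3.75 ± 0.14, adjusted p = 2.40e-09). Dab2, an endocytic adaptor, went from 45.5 and 38.5 to 4.38 and 4.78 in Schwann cells and from 57.3 and 48.7 to 114 and 111.5 in whole nerve (-3.92 ± 0.16, adjusted p = 3.70e-09). For Cp and Dab2 the libraries of a group lay close together and the 4 groups did not overlap.

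Fbln5, a protein of elastic fibres, went from 9.24 and 10.97 to 0.58 and 1.10 FPKM in Schwann cells and from 29.2 and 28.5 to 65.0 and 66.3 in whole nerve (interaction -4.37 ± 0.28, adjusted p = 8.92e-08). Cxadr, an adhesion molecule of cell junctions, went from 12.8 and 16.04 to 1.85 and 2.80 in Schwann cells and from 21.9 and 26.8 to 64.9 and 68.2 in whole nerve (-4.39 ± 0.31, adjusted p = 2.12e-07). Fibroblast markers stood as follows beside these results. Their summed level over 12 genes was 1704 and 1460 FPKM in uncrushed Schwann cells and 318 and 358 at day 3, and 7094 and 7779 and then 7690 and 7619 in whole nerve. The fall in Schwann cells was in Col3a1 (1023 and 1015, then 20.3 and 35.8), Mfap5 and Col1a1, which passed the test. Fn1 (fibronectin), Fbln1 and Thy1 passed the other way, so that 3 of 12 fell and 3 rose, whereas Dcn was at 16.9 and 7.92 and then 6.77 and 17.9, Lum at 7.87 and 5.46 and then 2.72 and 8.49, and Pdgfra at 0.60 or below in all 4 Schwann cell libraries. The part of fibroblast RNA in these falls was not tested.

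**Figure D2:**
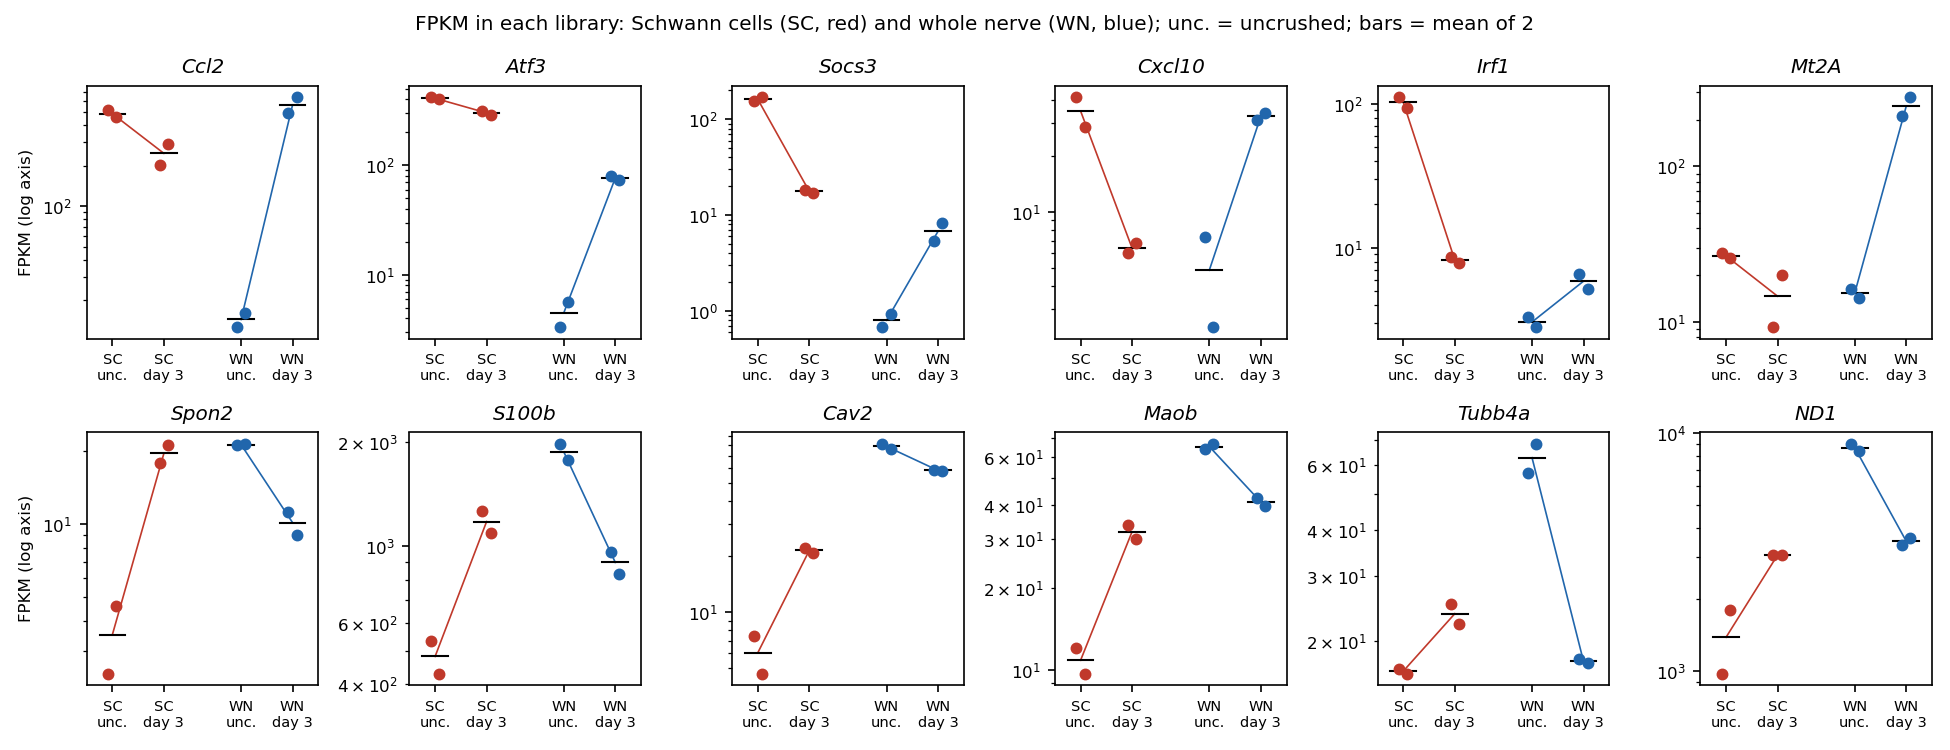
FPKM on a log axis in each of the 8 libraries for 6 genes that fell in Schwann cells and rose in whole nerve (top) and 6 with the reverse pattern (bottom), with 1 point per library and the mean of 2 as a bar. In each panel the red Schwann cell line and the blue whole nerve line slope in opposite directions. Starting levels were higher in Schwann cells for all of the top row and lower for all of the bottom row. The panels are picked examples. Cxadr, Fbln5 and G0s2, not drawn here, fell in Schwann cells from starting levels below those of whole nerve.

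Genes of the unfolded protein response and heat shock were lower in Schwann cells in 10 of 28 and higher in 0 (median interaction -0.51), a called share of 35.7% next to 26.0% of all genes tested, and 20 of 28 were lower with library totals only. In whole nerve 17 rose and 1 fell, and in Schwann cells 8 rose and 11 fell. The opposite members were 5 (Hmox1, Dnajb1, Hspa8, Hsp90aa1 and Dnajc3). They were 4 with DESeq2, upper quartile or RLE scaling, or TMM without mitochondrial genes. Hspa8, the constitutive cytosolic chaperone, went from 415 and 416 to 271 and 285 FPKM in Schwann cells and from 119.5 and 144 to 295 and 352 in whole nerve (interaction -1.52 ± 0.17, adjusted p = 1.13e-05). Hmox1, the heme-degrading enzyme, had the largest interaction of the list (-3.13 ± 0.44, adjusted p = 0.000105) and Pdia4, a chaperone of the endoplasmic reticulum, the smallest called (-0.60 ± 0.20, adjusted p = 0.0370). Pdia4 rose in both preparations.

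Of the 226 genes of the reverse class, which rose in Schwann cells and fell in whole nerve, 104 reached a mean of 10 FPKM in a group of each preparation, with no group at the floor and crushed libraries apart from uncrushed ones, and of these 104 Spon2 had the largest interaction. This secreted matrix protein was at 2.43 and 4.59 FPKM in uncrushed Schwann cells, 17.8 and 21.1 at day 3, 21.1 and 21.3 in uncrushed whole nerve and 11.2 and 9.04 at day 3. The Schwann cell libraries at day 3 thus reached the level of uncrushed whole nerve, while whole nerve itself fell. The interaction was 3.90 ± 0.38 (adjusted p = 3.81e-06). S100b, a calcium-binding protein long used to stain Schwann cells, went from 533 and 429.5 to 1266 and 1090 in Schwann cells and from 1972 and 1769 to 964 and 832 in whole nerve (2.70 ± 0.17, adjusted p = 9.17e-08). Cav2, a caveolin, went from 7.41 and 4.65 to 22.3 and 20.9 in Schwann cells and from 81.2 and 76.3 to 58.9 and 57.8 in whole nerve (2.62 ± 0.21, adjusted p = 8.13e-07). For these 3 genes no crushed library overlapped an uncrushed library of the same preparation, as the rule that named them required.

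Maob, a monoamine oxidase of the outer mitochondrial membrane, went from 12.02 and 9.73 to 33.7 and 30.2 FPKM in Schwann cells and from 63.8 and 66.7 to 42.4 and 39.6 in whole nerve (interaction 2.58 ± 0.21, adjusted p = 7.04e-07). Mfsd6, a membrane protein of the major facilitator family, went from 9.40 and 8.56 to 20.01 and 19.6 in Schwann cells and from 15.8 and 16.3 to 7.13 and 8.29 in whole nerve (2.52 ± 0.16, adjusted p = 8.74e-08). Tubb4a, a beta-tubulin of glia and neurons, went from 16.8 and 16.3 to 25.2 and 22.2 in Schwann cells and from 57.1 and 68.4 to 17.8 and 17.4 in whole nerve (2.70 ± 0.24, adjusted p = 1.96e-06). The Schwann cell rise of Tubb4a was 0.53 ± 0.17 (adjusted p = 0.0193), and its opposite call was lost without either uncrushed Schwann cell library or the first at day 3. Mapk3 and Prkca, kinases of growth factor signaling, were opposite in this direction as well. Prkca went from 27.4 and 33.9 to 84.6 and 76.1 FPKM in Schwann cells and from 42.7 and 53.8 to 36.8 and 36.2 in whole nerve (2.15 ± 0.19, adjusted p = 1.80e-06).

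All 13 protein-coding genes of the mitochondrial genome, which encode core subunits of the respiratory chain and ATP synthase, had a higher injury effect in Schwann cells, with a median interaction of 2.39, and all 13 remained higher with library totals only. In Schwann cells 12 rose and 0 fell (median 0.59) and in whole nerve 0 rose and 13 fell (median -1.48), so that 12 were opposite. Skeletal muscle genes fell with them in whole nerve: of 14 fat, muscle and red blood cell markers, 6 fell and 0 rose there (Acta1, Ckm, Myh1, Myh4, Mylpf and Tnnt3), Acta1, muscle actin, going from 8.09 and 140.7 to 3.63 and 1.30 FPKM. The part of muscle RNA in the whole nerve fall of mitochondrial transcripts was not tested. ND1, a subunit of complex I, was at 973 and 1792 FPKM in uncrushed Schwann cells, 3057 and 3074 at day 3, 8995 and 8364 in uncrushed whole nerve and 3384 and 3627 at day 3 (interaction 2.79 ± 0.33, adjusted p = 2.31e-05). The levels at day 3 were close in the 2 preparations, after starting levels that were far apart. COX1, of complex IV, showed the same course, from 9519 and 10130 to 18680 and 19160 in Schwann cells and from 45710 and 41480 to 19920 and 19730 in whole nerve. The interactions of ND2, ND6 and ATP6 were 2.68 ± 0.16, 2.70 ± 0.19 and 2.58 ± 0.20, and that of ND3 was the smallest of the 13 (1.44 ± 0.19, adjusted p = 6.94e-05). The opposite call of ND6, whose rise in Schwann cells was 0.43 ± 0.13, was lost without replicate 1 of either Schwann cell group. Mitochondrial transcripts took 15.6% and 14.2% of the counts of uncrushed whole nerve, 6.44% and 6.64% at day 3, and 2.90% and 3.65% and then 5.70% and 5.86% in Schwann cells. On the mitochondrial genome ATP6 overlaps ATP8 and ND4 overlaps ND4L on the same strand, so that they can share reads, and ND5 and ND6, on opposite strands, can share them where counting does not use strand. The separate values of these genes are uncertain.

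Nuclear genes for the same complexes did not share this size of difference. Of 39 tested, 12 were higher and 0 lower (median interaction 0.35), a called share of 30.8% next to 26.0% of all genes tested, none was opposite, and with library totals only 4 were higher and 3 lower. In Schwann cells 23 rose and 0 fell, and in whole nerve 6 rose and 2 fell, or 30 and 1 with library totals only. Cox8a, of complex IV, had the largest interaction, from 55.7 and 90.2 to 206 and 205 FPKM in Schwann cells and from 187 and 237 to 334 and 335 in whole nerve (1.16 ± 0.25, adjusted p = 0.0034).

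Fatty acid and myelin lipid synthesis added 3 opposite genes, Scd2, Cers2 and Degs1. Scd2, the stearoyl-CoA desaturase of glia, went from 1171 and 1259 to 2006 and 1939 FPKM in Schwann cells and from 3115 and 3014 to 1409 and 1317 in whole nerve (interaction 2.23 ± 0.14, adjusted p = 8.25e-08). Of 21 members, 11 were higher and 3 lower, or 6 and 5 with library totals only. With TMM this is a called share of 66.7%, next to 26.0% of all genes tested. Fa2h, which makes the 2-hydroxy fatty acids of myelin, was the highest (2.43 ± 0.31, adjusted p = 4.92e-05) and fell in both preparations, and Fasn, the fatty acid synthase, was the lowest (-1.71 ± 0.25, adjusted p = 0.000148).

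Cell cycle genes rose in both preparations, 40 of 40 in each, and the rise was larger in whole nerve: 38 of 40 were lower in the interaction and 1 higher, with medians of 1.54 in Schwann cells and 3.23 in whole nerve. Of the list 97.5% were called, next to 26.0% of all genes tested. With library totals only, 38 were lower and 0 higher. Top2a, the topoisomerase of replicating chromosomes, went from 45.6 and 33.8 to 64.0 and 60.8 FPKM in Schwann cells and from 7.51 and 7.07 to 82.1 and 91.6 in whole nerve. Its uncrushed Schwann cell level was above that of uncrushed whole nerve, and its day 3 level was below that of whole nerve at day 3. The interaction was -2.56 ± 0.17 (adjusted p = 1.54e-07). Mki67, the proliferation marker Ki-67, went from 39.1 and 37.0 to 81.7 and 84.9 in Schwann cells and from 6.24 and 5.71 to 68.7 and 71.1 in whole nerve (-2.06 ± 0.15, adjusted p = 2.98e-07). Before injury, all 40 genes had the higher mean FPKM in Schwann cells, and 10 of 40 did so at day 3. Ccnd1, cyclin D1 of the G1 phase, was the exception in direction, from 37.2 and 41.5 to 354 and 328 in Schwann cells and from 39.3 and 31.9 to 291.5 and 284 in whole nerve (0.46 ± 0.16, adjusted p = 0.0495), a call that was lost in 7 of 17 alternatives, library totals among them.

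The promoter of Top2a is shown for its CCAAT boxes, the binding sites of the factor NF-Y (RefSeq, build GRCr8, chr10:84473094-84473343, minus strand, 250 bases, 5′ to 3′). Its 4 boxes lay 57 to 239 bases upstream of the start and are in capitals, each as ATTGG, which reads CCAAT on the other strand.
Top2a: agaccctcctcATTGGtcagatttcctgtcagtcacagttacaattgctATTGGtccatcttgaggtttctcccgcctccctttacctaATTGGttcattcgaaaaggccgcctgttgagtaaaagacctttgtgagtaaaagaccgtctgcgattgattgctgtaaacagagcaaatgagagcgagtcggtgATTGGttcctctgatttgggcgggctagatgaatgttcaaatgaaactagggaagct
A CCAAT box was present upstream of 23 of the 31 matched cell cycle genes (74.2%) and of 35.1% of all matched genes tested.

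**Figure D3:**
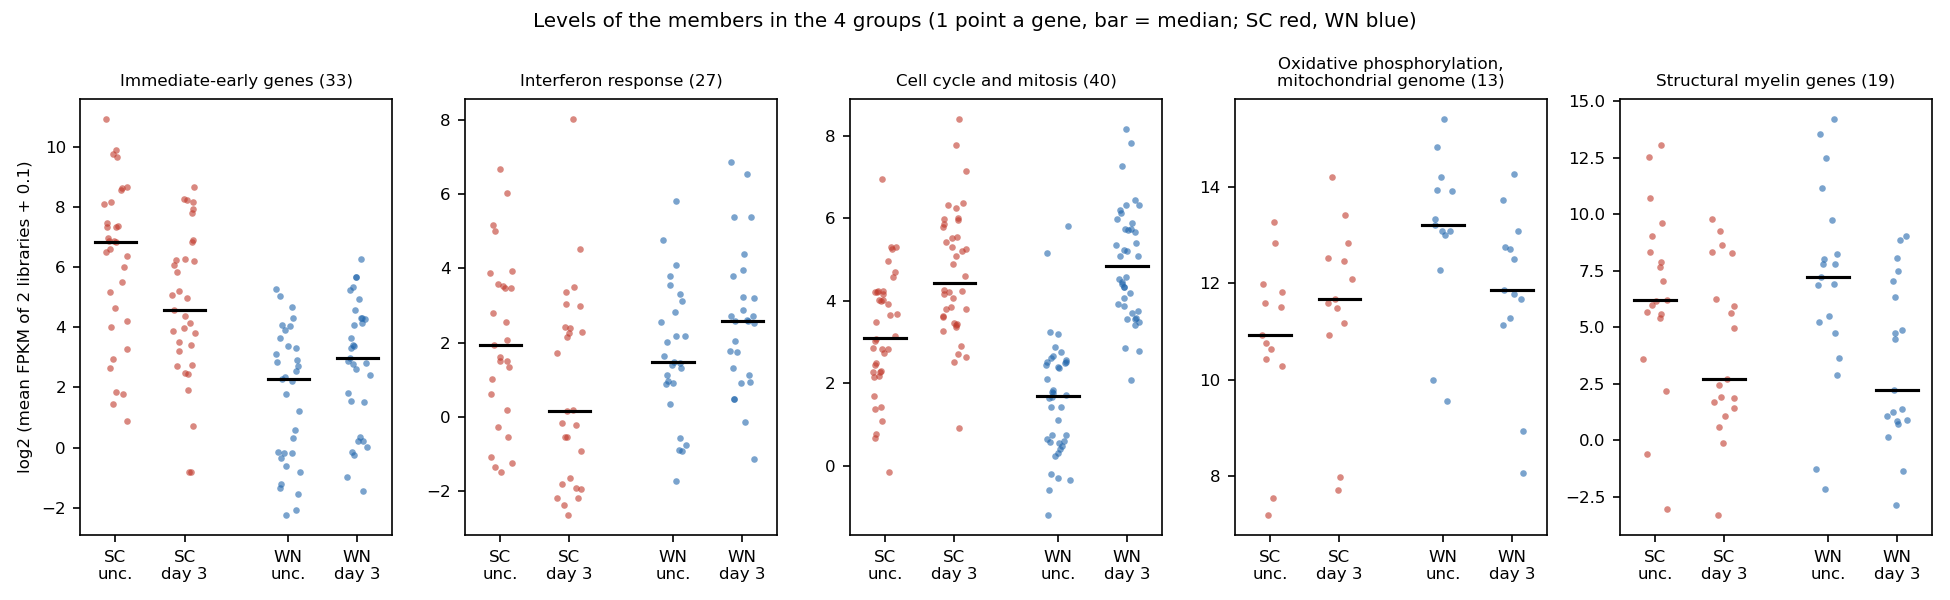
Each point is the mean FPKM of a gene over 2 libraries, as log2 (FPKM + 0.1), in uncrushed and day 3 Schwann cells (red) and whole nerve (blue) for 5 gene lists, with a bar at the median. The median of the 33 immediate-early genes was highest in uncrushed Schwann cells (113 FPKM) and lowest in uncrushed whole nerve (4.74 FPKM), and the median of the 13 mitochondrial genes was highest in uncrushed whole nerve (9524 FPKM).

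Most myelin genes fell in both preparations, 14 of 19 in Schwann cells and 18 of 19 in whole nerve with 1 rising in each, and the median fall was larger in whole nerve. Of the 19 structural myelin genes, 14 were higher and 1 lower in the interaction (12 and 1 with library totals only). With TMM 78.9% were called, next to 26.0% of all genes tested. The median effect was -2.69 in Schwann cells and -4.80 in whole nerve. Mbp, myelin basic protein, went from 1584 and 1736 to 382 and 410 FPKM in Schwann cells and from 5485 and 5871 to 273 and 253 in whole nerve (interaction 2.71 ± 0.17, adjusted p = 7.74e-08). Whole nerve held the highest level of Mbp before injury and the lowest after it. Pmp2, the fatty acid-binding protein of myelin, had the largest interaction of the list, from 226 and 179 to 76.5 and 74.9 in Schwann cells and from 2295 and 2310 to 83.6 and 77.9 in whole nerve (3.77 ± 0.20, adjusted p = 2.33e-08). Cholesterol synthesis genes fell in both, 23 of 23 in each. In the interaction 10 were higher and 3 lower (median 0.54), or 7 and 5 with library totals only. With TMM 56.5% were called, next to 26.0% of all genes tested. Hmgcs1, an early enzyme of the mevalonate pathway, was the highest (1.54 ± 0.16, adjusted p = 6.26e-06).

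Among genes that moved the same way in both with the larger change in whole nerve was Cntf, a neurotrophic cytokine of myelinating Schwann cells. It was at 33.6 and 26.6 FPKM, then 20.7 and 19.5, in Schwann cells and at 206 and 224, then 6.92 and 7.65, in whole nerve, which began above and ended below the purified cells. The interaction was 4.64 ± 0.18 (adjusted p = 2.40e-09). Tspan17, a tetraspanin, fell by 0.37 in Schwann cells and by 3.40 in whole nerve. Rgs16, a regulator of G protein signaling, rose in both, by 1.39 in Schwann cells and by 4.97 in whole nerve, where it began at 1.37 and 0.91 FPKM against 38.9 and 39.2 in Schwann cells.

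Those with the larger change in Schwann cells included the transporters Abca8a and Abca9, the Wnt antagonist Sfrp5 and Ltbp1, which binds latent TGF-beta. Abca8a fell from 503 and 483 to 7.57 and 4.10 FPKM in Schwann cells and from 60.4 and 76.7 to 44.3 and 48.3 in whole nerve (interaction -5.49 ± 0.29, adjusted p = 2.33e-08). Abca9 fell by 6.12 in Schwann cells and by 0.67 in whole nerve, and Sfrp5 fell by 6.61 and by 1.57. Ltbp1 rose from 0.62 and 0.71 to 36.0 and 37.7 in Schwann cells and from 12.7 and 9.60 to 21.1 and 21.5 in whole nerve (5.22 ± 0.31, adjusted p = 5.87e-08). Igfbp5, an IGF-binding protein, rose from 2.53 and 1.82 to 47.3 and 55.0 in Schwann cells and from 32.0 and 28.0 to 51.9 and 53.9 in whole nerve (4.09 ± 0.19), and Nbl1, a secreted antagonist of BMPs, by 3.65 and 0.65. Nes, the intermediate filament nestin, rose in Schwann cells from 29.2 and 33.7 to 304 and 308, and in whole nerve it was at 94.7 and 90.5 and then 119 and 138 (whole nerve effect 0.13 ± 0.11, adjusted p = 0.38). Before injury, both Schwann cell libraries were below both whole nerve libraries for Igfbp5, Nbl1 and Nes.

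Transcription factors of the Schwann lineage and repair program were lower in Schwann cells in 10 of 23 and higher in 2. This called share of 52.2% stands next to 26.0% of all genes tested. Stat3, which carries cytokine signals, was opposite, from 93.2 and 79.3 to 44.2 and 40.5 FPKM in Schwann cells and from 12.5 and 10.9 to 22.9 and 25.7 in whole nerve. Sox2, a factor of immature Schwann cells, rose in both, by 1.13 and by 3.60, with an interaction of -2.47 ± 0.34 (adjusted p = 9.2e-05). Id2, an inhibitor of differentiation, fell in both, by 4.15 in Schwann cells and by 1.06 in whole nerve. Runx2 rose from 2.10 and 2.16 to 147 and 149 in Schwann cells and from 0.83 and 0.62 to 28.0 and 25.6 in whole nerve (1.24 ± 0.24, adjusted p = 0.00149). Tfap2a was at 0 in both uncrushed whole nerve libraries and at 0.52 and 0.40 at day 3, at least 4.57-fold higher, and at 0.50 and 0.43 and then 2.27 and 1.89 in Schwann cells, and Nfatc4 was at 0.48 FPKM or below in Schwann cells.

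Of 28 repair ligands and receptors, 14 rose in Schwann cells and 15 in whole nerve, and the interaction was higher in 4 and lower in 7, or 2 and 9 with library totals only. The called share was 39.3%, next to 26.0% of all genes tested. Ngfr, the p75 neurotrophin receptor, rose from 54.0 and 38.0 to 1132 and 1059 FPKM in Schwann cells and from 12.6 and 13.3 to 473 and 490.4 in whole nerve, with effects of 4.59 and 4.88 and an interaction of -0.28 ± 0.31 (adjusted p = 0.554). Gdnf, a survival factor for motor neurons, rose from 3.26 and 1.60 to 65.2 and 78.2 in Schwann cells and from 0.02 and 0 to 10.8 and 11.2 in whole nerve, where the uncrushed group was at the counting floor. Bdnf was at 0 in both uncrushed whole nerve libraries and at 0.41 and 0.39 at day 3 (at least 4.81-fold higher), and at 0.26 and 0.13 and then 0.70 and 0.85 in Schwann cells. Edn3, an endothelin, went the other way at the start: it was at 0 in both uncrushed Schwann cell libraries and at 37.3 and 48.2 at day 3, at least 104-fold higher, against 1.52 and 2.59 and then 44.8 and 33.2 in whole nerve. Ednrb, the endothelin receptor, was opposite, from a mean of 203 to 124.5 FPKM in Schwann cells and from 25.95 to 54.3 in whole nerve.

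A list of 16 genes held those of the study's qPCR and in situ panels and Sema5a, which its text names. They were chosen by the study on these samples, so their direction is not independent evidence. The Schwann cell effect was called up for 11 and down for 5, and so was the whole nerve effect. The interaction was higher in 12 and lower in 1 (81.2% called, next to 26.0% of all genes tested). Mdk, the growth factor midkine, rose from 5.10 and 4.12 to 36.4 and 46.5 FPKM in Schwann cells and from 27.0 and 36.5 to 57.2 and 60.4 in whole nerve (3.13 ± 0.28, adjusted p = 1.85e-06). Tes, a focal adhesion protein, had an interaction of 2.98 ± 0.34 (adjusted p = 1.78e-05), and Spp1 (osteopontin), Gpr83, Tnc (tenascin-C), Gpc1 (glypican), Cited2, Runx2 and Edn3 were also higher. Mal, Prx and Cldn19, of myelin, fell in both and fell further in whole nerve, with interactions of 1.54 ± 0.21, 1.54 ± 0.30 and 1.29 ± 0.23. Gfra1, the GDNF receptor (0.06 ± 0.17), Btc, an EGF-like ligand (-1.45 ± 0.70), and Sema5a, a guidance molecule (-0.49 ± 0.25), did not pass.

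Of 29 collagens, 13 were lower and 3 higher in Schwann cells (55.2% called, next to 26.0% of all genes tested). In Schwann cells 20 fell, against 14 in whole nerve. With library totals only, 16 were lower and 1 higher, and 8 fell in whole nerve. Col3a1 had an interaction of -4.46 ± 0.31 (adjusted p = 1.79e-07), Col11a1, a fibrillar collagen, the lowest p of the list (-4.54 ± 0.22, adjusted p = 1.34e-08), and Col2a1, the cartilage collagen, the highest value (2.35 ± 0.21, adjusted p = 2.17e-06). Of 35 laminins, integrins and other matrix genes, 15 were lower and 6 higher (60% called, next to 26.0% of all genes tested). Sparcl1, a matricellular protein, fell from 895 and 771 to 5.53 and 6.87 FPKM in Schwann cells and from 123 and 150.2 to 32.7 and 30.2 in whole nerve (-4.58 ± 0.29, adjusted p = 8.67e-08). Lama2, Lamb1 and Lamc1, chains of the main Schwann cell laminin, fell further in Schwann cells, with interactions of -1.25, -1.49 and -1.77. Of 25 proteases and inhibitors, 8 were lower and 6 higher (56% called, next to 26.0% of all genes tested). Opposite calls went to 4 (Plau, Timp1, Mmp2 and Adam17), or to 3 with upper quartile or RLE scaling. Over all genes tested, 1.91% were opposite in this direction. Timp1, an inhibitor of matrix metalloproteinases, was at 294 and 302 and then 255 and 258 in Schwann cells and rose from 64.3 and 70.0 to 284 and 271.5 in whole nerve (-1.96 ± 0.13, adjusted p = 1.03e-07). Serpine2, a protease inhibitor, was the highest of that list, from 20.5 and 27.4 to 690.5 and 710 in Schwann cells and from 65.0 and 68.9 to 476 and 532 in whole nerve (2.31 ± 0.26, adjusted p = 1.68e-05).

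**Figure D4:**
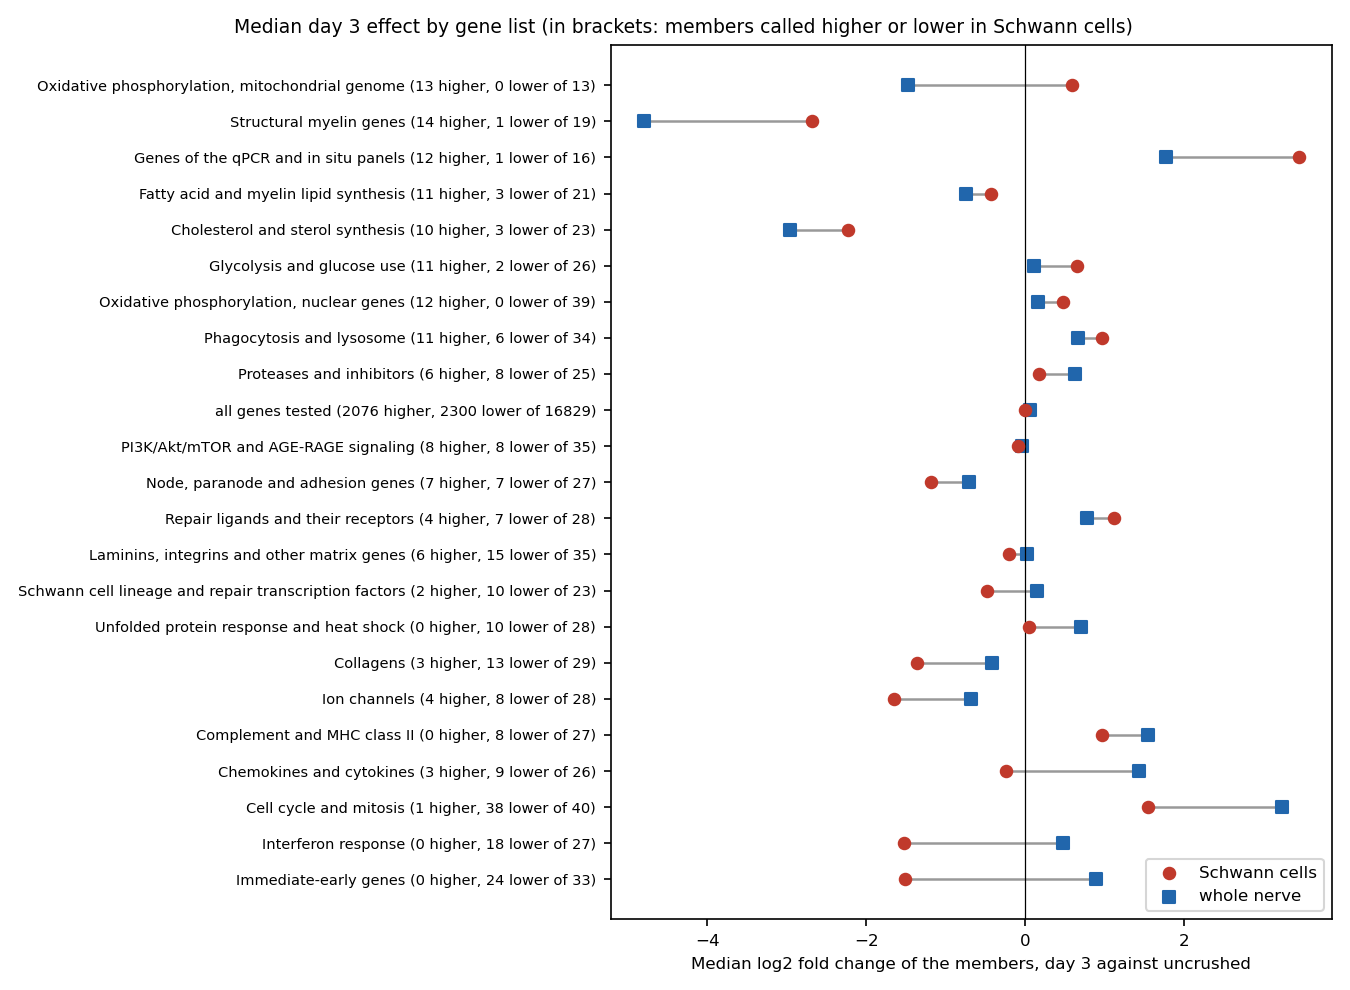
Median log2 fold change of the members of 22 gene lists and of all genes tested, at day 3 against uncrushed, in Schwann cells (red circles) and whole nerve (blue squares), with the number of members called higher or lower in Schwann cells in brackets. Immediate-early genes, interferon response genes and chemokines lie left of 0 in Schwann cells and right of 0 in whole nerve, and the mitochondrial genome has the reverse order (0.59 and -1.48).

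The same interaction at days 5 and 7 uses the same uncrushed libraries, so the values below share controls with day 3 and are given side by side. S100b had interactions of 2.70, 2.70 and 2.59 at days 3, 5 and 7, and Maob had 2.58, 2.78 and 2.98. The interaction of ND1 was 2.79, 1.80 and 2.27. Among genes that fell in Schwann cells, Cxcl10 had -4.77, -4.50 and -5.08, Socs3 had -5.95, -4.44 and -3.86, and Cp had -3.75, -4.41 and -5.11. The interaction was smaller at the later days for Cyp7b1, with -4.79, -3.44 and -2.12, for Dab2, with -3.92, -1.66 and -1.07, and for Fbln5, with -4.37, -1.01 and -0.29 (adjusted p at day 7 = 0.41). Over all genes, 27.5% differed at day 5 and 26.0% at day 7.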

How the data were processed

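Amplified cDNA libraries (Ovation RNA-Seq V2, with no molecular identifiers) of purified Schwann cells and whole sciatic nerve were sequenced as paired reads, and strand use in counting is not given in the sources used here. Per the file headers and the methods, the authors used STAR for alignment, with Rnor_6.0 as the rat build, and deposited RSEM expected counts, which are estimated fragments per gene and not normalized. The authors also deposited RSEM FPKM values, scaled to gene length and library total, and TPM values, which were not used for any test. The joint count matrix and the table of the authors' co-expression modules were not used, and 0 columns of per-sample values were left unassigned. Groups follow the labels. Nothing in the labels says that the 2 samples of a group were separate cohorts, so p-values measure the spread between these samples, which may be technical. No replicate pair was a repeat deposit: the chi-square per degree of freedom between replicates was 8.552 to 30.03.

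After rounding, expected counts were fitted for all 16 libraries (8 groups of 2) with edgeR 4.0.16 (R 4.3.3, limma 3.58.1), TMM factors, filterByExpr (16829 of 31038 genes kept) and the quasi-likelihood test, with Benjamini-Hochberg adjustment over all genes tested and a threshold of 0.05. Every adjusted p in the text is from this test, every ± is a standard error of a log2 value, and n is 2 per group. An exact permutation test of 2 against 2 libraries cannot go below 0.333. On simulated data for the day 3 interaction, edgeR recovered 36 of 100 genes changed 2-fold and 65 of 100 changed 4-fold. It tested 16138 genes there, with 1 unchanged gene among 102 calls. Only 200 genes were changed in the simulation, whereas 26.0% of genes tested were called in the data. Its recovery and false calls need not hold for the data. Counts of 3 or fewer were taken as the floor, and intervals and floors cover counting error only. Gene lists (22 functional and 8 of markers) and all rules were chosen with earlier results of these data known, and lists are described by counts and medians with no test.

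Genes named are, in each opposite class, the 10 with the largest interaction among those with a mean of at least 10 FPKM in a group of each tissue, no group at the floor and crushed libraries apart from uncrushed libraries; under the same level and floor conditions, the 4 lowest p in each direction and the 4 largest interactions of each kind among genes moving the same way; the called extremes of each functional list; the study's qPCR and in situ panels with Sema5a; and Sox10, Ngfr, Mbp, Jun, Gdnf, Ptprc and Cx3cr1. Other list members were picked as examples after their values were seen, and some genes that these rules name are not reported here. Promoters (RefSeq, GRCr8) were matched by symbol for 11233 genes tested, and no genome of Rnor_6.0 was used. Alternatives were upper quartile and RLE scaling, TMM without mitochondrial genes, library totals, DESeq2 1.42.0, other count filters, a 2-fold minimum, other samples in the fit, a replicate block and leaving out each library.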

Additional observations from a re-analysis of the deposited data

Results flagged for a closer look

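The results below were singled out because the test of the difference itself called unequal day 3 effects in the 2 preparations. They are the 4376 genes that differed, the 226 that rose in Schwann cells and fell in whole nerve, and the 321 with the reverse pattern. Among named genes that fell in Schwann cells and rose in whole nerve, the interactions were -5.94 for Ccl2, -5.71 for Apoc1, -4.87 for Ccl7, -4.79 for Cyp7b1, -4.77 for Cxcl10, -4.46 for Mt2A, -4.39 for Cxadr, -4.37 for Fbln5, -4.22 for G0s2 and -4.21 for Atf3. Among those that rose in Schwann cells and fell in whole nerve, they were 3.90 for Spon2, 2.79 for ND1, 2.70 for S100b, 2.70 for Tubb4a, 2.70 for ND6, 2.68 for ND2, 2.62 for Cav2, 2.58 for Maob, 2.58 for ATP6 and 2.52 for Mfsd6. Groups of 2 libraries are too small to test for single libraries that stand apart.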

How the results depend on the processing

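Library totals without TMM factors, chosen after seeing the data, gave 5535 differing genes, 1078 higher and 4457 lower, opposite counts of 85 and 748, 7 nuclear oxidative phosphorylation genes (12 with TMM) and 20 unfolded protein response genes (10 with TMM), and interactions of -0.31 for Gfra1 and -0.13 for Sox10, both reversed. With a 2-fold minimum, 2470 genes differed (1027 higher and 1443 lower), 4362 changed in Schwann cells and 3310 in whole nerve. Leaving out 1 library at a time gave 3190 to 4374 differing genes, 135 to 256 that rose in Schwann cells and fell in whole nerve, and 215 to 314 with the reverse pattern. In the same way Cx3cr1 ranged from -6.18 to 0.42, Gfra1 from -0.11 to 0.25 and Ptprc from -1.29 to 1.57, and none of these 3 was called with all libraries. A group left with 1 library is assumed to vary like the others. Of 88 named genes called, 78 stayed called in every alternative, and the others, among them Bdnf, Ccnd1, Csrnp1, Gpr83, Il18, Nfatc4, Pdia4 and Tfap2a, were lost in at least 1. The fit on the 8 libraries of the contrast lost the opposite calls of Atf3, G0s2 and Mt2A, and fitting each tissue on its own lost that of Mt2A. The cause of these changes was not tested.

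Replicate numbers did not pair the samples, since correlations of same-numbered deviations ran from -0.0552 to 0.0758. With the replicate block, 225 and 314 were opposite, of which 213 and 294 were opposite without it. Errors were wide at low counts: Cx3cr1, with counts of 0 and 21 in the day 3 Schwann cell libraries, had a standard error of 1.57, and the parts of depth and of the second library, where myeloid markers were high, were not tested.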

Other observations

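Of all genes tested 26.0% differed, and the counts of other gene groups were as follows. Of 34 phagocytosis and lysosome genes, 11 had the higher injury effect in Schwann cells and 6 the lower (median interaction 0.09), or 5 and 8 with library totals only. Lipa, the lysosomal acid lipase, rose from 6.45 and 5.48 to 112 and 119 FPKM in Schwann cells and from 8.72 and 9.87 to 66.8 and 68.9 in whole nerve (interaction 1.77 ± 0.18). Mertk, a receptor for dying cells and debris, rose from 4.83 and 4.20 to 38.3 and 40.1 in Schwann cells and from 5.62 and 6.01 to 16.95 and 16.46 in whole nerve (1.95 ± 0.25), whereas its ligand Pros1 was opposite, with effects of -0.98 and 0.67. Of 26 glycolysis genes, 11 were higher and 2 lower, or 8 and 4 with library totals only, and Hk2, a hexokinase, fell in Schwann cells and rose in whole nerve (-1.08 ± 0.20). Of 28 ion channel genes, Ano1, a calcium-activated chloride channel, was the highest, from 0.12 and 0.17 to 4.03 and 3.42 FPKM in Schwann cells and at 1.17 to 1.94 in whole nerve.

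Of the 28 ion channel genes, 4 were higher and 8 lower. Node, paranode and adhesion genes had 7 higher and 7 lower of 27, or 3 and 10 with library totals only, and PI3K/Akt/mTOR and AGE-RAGE signaling genes 8 and 8 of 35, or 5 and 16 with library totals only. Among markers, 4 of 11 Schwann cell genes were higher and 2 lower (4 and 4 with library totals only), as were 4 and 4 of 18 endothelial and pericyte genes, 3 and 1 of 12 axonal and neuronal transcripts, 1 and 0 of 14 fat, muscle and red blood cell genes and 1 and 0 of 7 neutrophil and lymphocyte genes. The called shares of the last 3 lists were 33.3%, 7.14% and 14.3%, next to the 26.0% of all genes. Of 6 perineurial markers, edgeR and DESeq2 each called 0, with 0 at an unadjusted p under 0.05 in edgeR. Gap43, a growth-associated protein of axons that repair Schwann cells also make, went from 1.32 and 1.10 to 10.9 and 11.9 FPKM in Schwann cells and was at 16.9 and 9.29 and then 8.81 and 10.8 in whole nerve (interaction 4.005 ± 0.45).

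Col1a2, a chain of type I collagen, was at 249 and 12.7 FPKM in uncrushed Schwann cells, 83.7 and 82.8 at day 3, 0.02 and 0 in uncrushed whole nerve and 21.6 and 0 at day 3. Its partner chain Col1a1 was at 1354 and 1763 FPKM in uncrushed whole nerve and 1342 and 1340 at day 3. The interaction of Col1a2 was not called (adjusted p = 0.0949).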
